A study of Danio rerio with 18 samples.

Results

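Insulin, the glucagon precursor gene gcga, the somatostatin genes sst1.1 and sst2, and the islet transcription factors isl1a, neurod1, nkx2.2a and pax6b were measured in whole zebrafish embryos with and without a morpholino against cardiac troponin T2 (tnnt2). These 8 genes were found by gene names in the descriptions of the deposited 48 h table, or in the symbol columns of the deposited gene lists. Each was represented by 1 probe set, out of 15502 probe sets that are not manufacturer's controls and 3502 genes that could be named. All 8 probe sets lay above the limit on dim probe sets, which was set on the mean over all arrays. The probe set counted for gcga carries the older name glu, that for sst1.1 the name SS1 and that for sst2 the name smst. A further probe set that shares a clone name with pax6b was not counted, because its description names a DNA primase. None of the 8 probe sets stood in any of the 9 deposited lists of higher or lower probe sets that were searched.

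The islet of the zebrafish embryo is a small cluster of endocrine cells in the trunk, in which beta cells make insulin, alpha cells make glucagon and delta cells make somatostatin. Neurod1, nkx2.2a, isl1a and pax6b encode DNA-binding proteins that act as these cells differentiate, and all 4 are also used elsewhere: neurod1 in neurons and retina, isl1a in motor and sensory neurons, nkx2.2a in the ventral neural tube, and pax6b in eye and brain. Cardiac troponin T is a sarcomere protein of the heart muscle, and embryos without it have a heart that does not beat and therefore no blood flow. The design compares embryos given a morpholino against this gene with control embryos while the islet is growing.

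Total RNA from whole embryos was hybridised to 18 Affymetrix arrays, 3 for each of 6 groups. The groups were AB strain embryos injected at the one-cell stage with the tnnt2 morpholino and AB control embryos, each at 36, 48 and 60 h after fertilisation. The design text says that controls received a control morpholino, whereas their titles call them wildtype AB, and 1 protocol gives an earlier first time than the titles, so they are called control embryos here and the titles' times are used. Parent pairs contributed equally to each group of embryos, but no label says that the 3 arrays of a group came from separate clutches, so the p-values speak of the variation among these arrays alone, and that variation may be technical. A knockdown by morpholino may be incomplete, and no dose was given in the sources used here.

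A pair of control arrays stood apart from the rest. Control array 1 at 36 h had a median deposited signal of 1.48, and control array 2 at 60 h a median of 1.19, on the log2 scale, whereas the other 16 medians lay between 2.14 and 3.86. After quantile normalisation, which gives every array the same distribution, control array 1 at 36 h was still the highest of its 3 arrays for 6 of the 8 genes. Where a call changed or a difference turned without both of these arrays, the value without them is given. The probe set for tnnt2a, the targeted gene, differed between morphants and controls by -0.02 at 36 h, -0.02 at 48 h and -0.31 at 60 h (log2 difference), and by -0.12 on average (SE 0.27, limma adjusted p = 0.810). A morpholino that blocks translation leaves the transcript in place, so this level does not check the labels.

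All values below are normalised log2 signals, so that a difference of 1 is a doubling, and tests were made with limma on 11626 probe sets with Benjamini-Hochberg adjustment and a threshold of 0.05. No level of one probe set is set against that of another, since probes differ in how brightly they bind. In RNA from whole embryos, fewer cells of a type and less RNA per cell cannot be told apart.

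In morphants compared with controls, 0 of the 8 genes passed the test at any single time. The background share of probe sets that passed was 0.181% at 36 h, 0.568% at 48 h and 0.920% at 60 h. At an unadjusted p under 0.05, 2 of the 8 passed at 36 h, 3 at 48 h and 2 at 60 h. Of all 11626 probe sets tested, 1534, 1192 and 2064 passed that looser threshold at these times. In the average over the 3 times, 0 of the 8 passed, against a background of 4.81%. At an unadjusted p under 0.05, 1 of the 8 passed in the average, and 3026 of all 11626 probe sets tested. The test of whether the morphant difference changed between times called 0 of 8 genes, against a background of 0.0258%. In that test 4 of the 8 had an unadjusted p under 0.05, as had 899 of all 11626 probe sets tested. The median log2 difference of the 8 genes was -0.04 at 36 h, 0.34 at 48 h and -0.50 at 60 h, where that of all probe sets tested was 0.01, 0.01 and 0.00. With 3 arrays a group, intervals were wide for the dim hormone probe sets, and a missed threshold does not show that levels were alike.

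**Figure D1:**
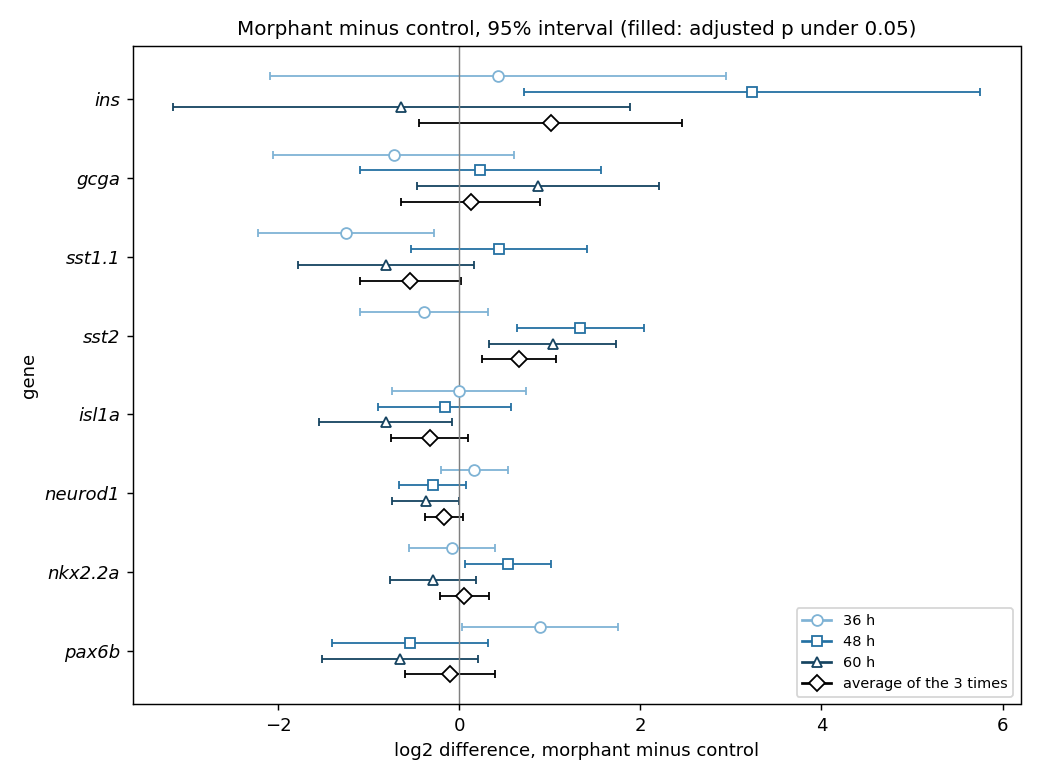
Log2 difference of morphant minus control (horizontal axis) for each of the 8 genes (vertical axis) at 36, 48 and 60 h and for the average of the 3 times, with 95% intervals from limma. No symbol is filled, as no difference passed an adjusted p of 0.05, and the interval of ins spans several log2 units while that of neurod1 is under 1 unit wide.

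Insulin, the hormone of beta cells, had its widest gap at 48 h. At 36 h the ins signal was 1.74, 2.40 and 2.33 on the morphant arrays, against 4.86, -2.99 and 3.31 on the control arrays. The control arrays lay on both sides of all morphant arrays. The second control array carried a deposited standard error of 2.61, the largest of any ins value.

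At 48 h ins read 2.47, 3.47 and 3.03 in morphants, against -1.23, 0.28 and 0.22 in controls. Every morphant array was higher than every control array, and the control values were so dim that no fold is given, with deposited standard errors of 2.43, 1.80 and 1.82. The log2 difference of 3.23 (SE 1.2, 95% interval 0.72 to 5.75) had a limma adjusted p of 0.300. The fit takes 1 spread per probe set from all 6 groups, and the SD of ins among the 3 control arrays at 36 h was 4.16, against 0.50 among morphants and 0.85 among controls at 48 h. When only the 6 arrays of 48 h were fitted, the same difference had a limma adjusted p of 0.0104.

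At 60 h ins read 3.29, 3.45 and 3.46 in morphants and 3.93, 4.86 and 3.33 in controls. The groups overlapped at this time, and the difference was -0.64 (95% interval -3.15 to 1.88, limma adjusted p = 0.798). The highest value belonged to the control array with the lowest median.

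In control embryos ins did not follow a single direction over time, since its means were 1.72 ± 4.16, -0.24 ± 0.85 and 4.04 ± 0.77 at 36, 48 and 60 h (SD, n = 3 each). In morphants the means were 2.16 ± 0.37, 2.99 ± 0.50 and 3.40 ± 0.10 (SD, n = 3 each). The step between 48 and 60 h in controls was 4.28 (SE 1.2, limma adjusted p = 0.0146), whereas in morphants it was 0.41 (limma adjusted p = 0.906). The control step missed the threshold without control array 1 at 48 h (3.79, adjusted p = 0.0641) or without control array 2 at 60 h (3.87, adjusted p = 0.0615).

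The value of ins in controls at 36 h depended on which array was left out. Without control array 2 at 36 h, ins fell by 4.33 between 36 and 48 h in controls (limma adjusted p = 5.13e-05), against -1.97 with it (adjusted p = 0.248). Leaving out the same array changed the morphant difference at 36 h to -1.93, against 0.43 with it, and brought the test of a difference between times to a limma adjusted p of 0.00823, against 0.700 with it. Without control array 1 instead, the morphant difference at 36 h was 2.0 (limma adjusted p = 0.832). The control change between 36 and 60 h was 2.32 with all arrays (limma adjusted p = 0.202), 3.88 without control array 1 at 36 h (adjusted p = 0.0110) and -0.042 without control array 2 (adjusted p = 0.973). Without both control arrays of low median it was 3.47 (adjusted p = 0.0447).

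The somatostatin gene sst2 came nearest to the threshold in the comparison of morphants with controls. At 36 h it read 3.00, 2.95 and 3.28 in morphants and 4.10, 2.88 and 3.41 in controls, with overlapping groups and a difference of -0.39 (SE 0.34, limma adjusted p = 0.600). At 48 h it read 3.50, 4.06 and 3.89 in morphants, against 2.11, 3.07 and 2.24 in controls. Every morphant array was higher than every control array at that time.

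The 48 h difference for sst2 was 1.34 (SE 0.34, 95% interval 0.63 to 2.04), a 2.53-fold higher mean signal in morphants, with a limma adjusted p of 0.0778. Its unadjusted p ranked 124 among the 11626 probe sets. At 60 h sst2 read 3.84, 3.82 and 3.89 in morphants, against 3.51, 2.65 and 2.29 in controls. Again the groups did not overlap, and the 3 morphant arrays lay within 0.1 of each other. The 60 h difference was 1.03 (SE 0.34, 95% interval 0.33 to 1.74, limma adjusted p = 0.149).

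Averaged over the 3 times, sst2 was 0.66 higher in morphants (SE 0.19, 95% interval 0.26 to 1.07), with a limma adjusted p of 0.0546. The adjusted p of this average ran between 0.0216 and 0.108 when each of the 18 arrays was left out in turn, and passed 0.05 in 4 of the 18. These were the fits without control array 1 (0.0216) or control array 3 (0.0446) at 36 h, control array 2 at 48 h (0.0424) and control array 1 at 60 h (0.0319). Without both control arrays of low median, sst2 passed at 48 h (1.34, limma adjusted p = 0.0289) and in the average (0.74, adjusted p = 0.0381).

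Over time sst2 ran differently in the 2 kinds of embryo as far as the means go. The morphant means were 3.08 ± 0.18, 3.81 ± 0.29 and 3.85 ± 0.03 at 36, 48 and 60 h, against 3.46 ± 0.61, 2.48 ± 0.52 and 2.82 ± 0.63 in controls (SD, n = 3 each). The test of a difference between times had an unadjusted p of 0.00409 and a limma adjusted p of 0.529. In controls sst2 fell by 0.99 between 36 and 48 h (SE 0.34, limma adjusted p = 0.0413). That step missed the threshold in 4 of the 6 fits that leave out 1 of its arrays, among them the one without control array 1 at 36 h (-0.67, adjusted p = 0.177). It also missed without both control arrays of low median (-0.67, limma adjusted p = 0.171).

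The other somatostatin gene, sst1.1, did not pass in morphants against controls, and its arrays were apart at 36 h only. It read 1.15, 1.11 and 1.62 in morphants at 36 h, against 3.84, 1.86 and 1.93 in controls. Each morphant array was below each control array, and control array 1 was far above the other two. The difference was -1.25 (SE 0.46, limma adjusted p = 0.293), and -0.60 without control array 1.

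At 48 h sst1.1 read 2.29, 3.02 and 2.24 in morphants and 1.95, 1.66 and 2.63 in controls, and at 60 h 3.29, 3.33 and 3.07 in morphants and 4.10, 4.74 and 3.27 in controls. The groups overlapped at both times, with differences of 0.44 (limma adjusted p = 0.897) and -0.81 (adjusted p = 0.358). Over the 3 times the sst1.1 mean was 1.29 ± 0.28, 2.52 ± 0.44 and 3.23 ± 0.14 in morphants, and 2.54 ± 1.12, 2.08 ± 0.50 and 4.04 ± 0.73 in controls (SD, n = 3 each).

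The transcript of sst1.1 rose with time in both kinds of embryo. Between 36 and 60 h it gained 1.94 in morphants (SE 0.46, 3.83-fold, limma adjusted p = 0.00925) and 1.49 in controls (SE 0.46, 2.82-fold, limma adjusted p = 0.0311). The morphant gain passed in all 6 fits that left out 1 of its arrays. It missed with arrays weighted by their deposited standard errors (1.85, limma adjusted p = 0.0974). The control gain passed in 2 of 6, and missed without control array 2 or 3 at 36 h (adjusted p = 0.138 and 0.116) or control array 1 or 2 at 60 h (0.0823 and 0.150). It also missed when only the arrays of the groups compared were fitted (limma adjusted p = 0.196). Controls differed by -0.46 between 36 and 48 h (limma adjusted p = 0.498) and gained 1.96 between 48 and 60 h (SE 0.46, limma adjusted p = 0.00582), a step that passed in all 6 fits with an array left out. On the values as deposited, before normalisation, the calls were lost: that step was 0.064 (adjusted p = 0.90), and the changes between 36 and 60 h were 1.39 in morphants and 0.73 in controls (adjusted p = 0.135 and 0.252). Without both control arrays of low median, the morphant gain of 1.23 between 36 and 48 h passed (limma adjusted p = 0.0103, against 0.0796 with them), and the control difference over the same step was 0.19.

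The glucagon precursor gene gcga, the alpha cell hormone gene, did not separate the groups before 60 h. At 36 h it read -0.34, 0.75 and 1.34 in morphants and 2.45, 0.60 and 0.86 in controls, and at 48 h 0.37, 1.14 and 1.29 in morphants and -0.47, 1.24 and 1.32 in controls. The groups overlapped at both times. At 60 h it read 2.76, 2.65 and 2.32 in morphants, against 0.74, 2.23 and 2.15 in controls, and every morphant array was above every control array, by 0.1 between the nearest pair. The 60 h difference was 0.87 (SE 0.63, limma adjusted p = 0.464).

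Between 36 and 60 h gcga rose by 1.99 in morphants (SE 0.63, limma adjusted p = 0.0480), whereas the control difference was 0.40 (SE 0.63, limma adjusted p = 0.718). The mean of morphants at 36 h was below the limit on dim probe sets, so no fold is given. The call rested on every array but 1: it was lost in 5 of the 6 fits that left out an array, with adjusted p between 0.0954 and 0.214. These were the fits without morphant array 1 (1.53) or 2 (2.08) at 36 h and without morphant array 1 (1.90), 2 (1.96) or 3 (2.12) at 60 h. On the values as deposited the gcga difference was 1.47 (limma adjusted p = 0.257). The difference between morphants and controls at 36 h was -0.72, and -0.14 without both control arrays of low median. The test of a difference between times for gcga had a limma adjusted p of 0.801, so the changes in morphants and controls were not shown to differ.

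**Figure D2:**
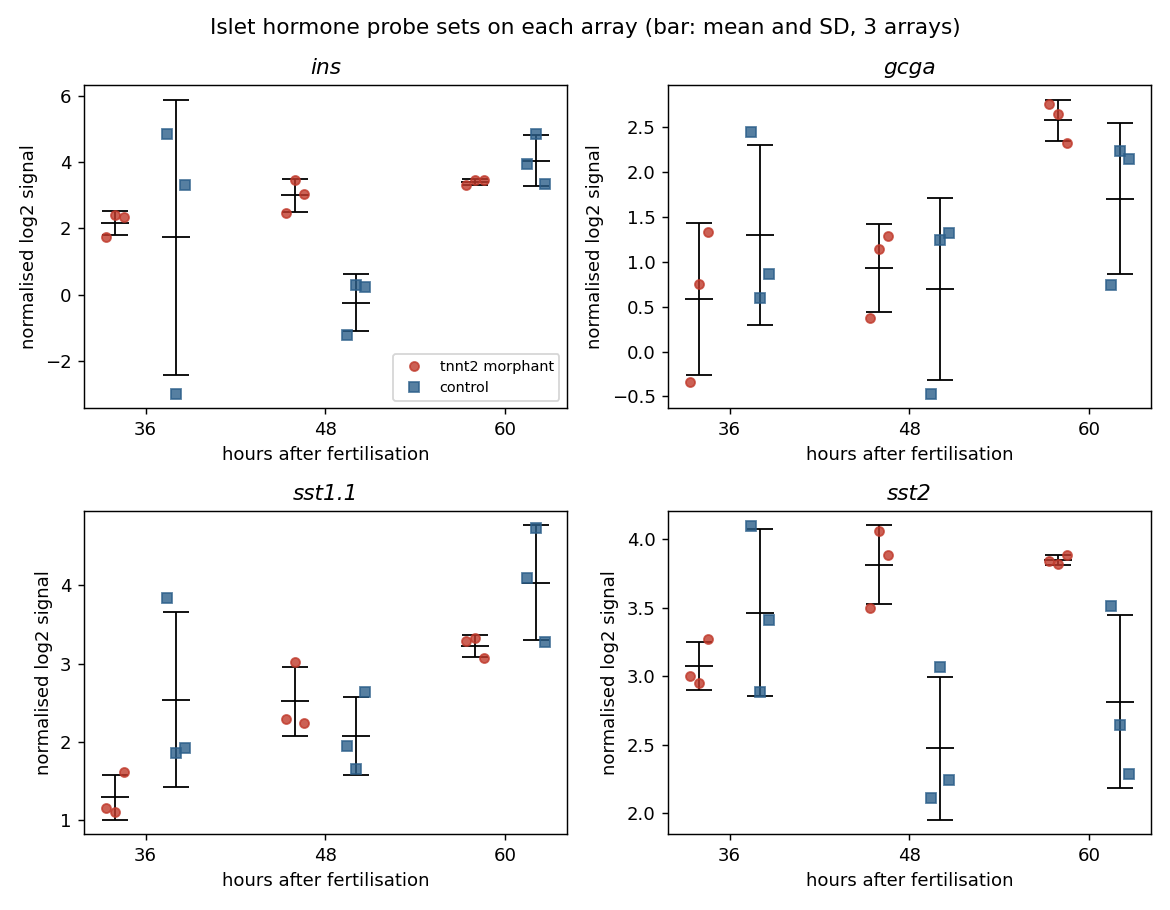
Normalised log2 signal (vertical axes) of the 4 hormone genes on each array at 36, 48 and 60 h (horizontal axes), with morphants as red circles left of controls as blue squares, and bars for the mean and SD of 3 arrays. Morphant arrays lie above control arrays at 48 h for ins, at 60 h for gcga and at both times for sst2, and control arrays at 36 h are widely spread for ins.

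Among the transcription factors, neurod1, a helix-loop-helix factor of endocrine and neural differentiation, was measured most precisely. It read 4.21, 4.33 and 4.36 in morphants and 3.91, 4.26 and 4.24 in controls at 36 h, with overlapping groups. At 48 h it read 5.29, 5.33 and 5.34 in morphants, against 5.43, 5.52 and 5.89 in controls, and each morphant array was below each control array. At 60 h it read 5.19, 5.30 and 5.82 in morphants and 5.69, 5.69 and 6.03 in controls, and the third morphant array lay within the control range. The differences were 0.17, -0.29 and -0.37 at 36, 48 and 60 h (SE 0.18 each, limma adjusted p = 0.670, 0.675 and 0.283).

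The neurod1 signal rose with time in both kinds of embryo after normalisation. Between 36 and 48 h it gained 1.02 in morphants (SE 0.18, 2.02-fold, limma adjusted p = 0.000832) and 1.47 in controls (SE 0.18, 2.78-fold, limma adjusted p = 3.57e-05). Between 36 and 60 h it gained 1.13 in morphants (2.19-fold, limma adjusted p = 0.000292) and 1.67 in controls (3.17-fold, limma adjusted p = 5.44e-06). These 4 calls passed in every fit that left out 1 array. On the values as deposited, only the control rise between 36 and 48 h of the 4 still passed. There the morphant changes were 1.07 between 36 and 48 h and 0.48 between 36 and 60 h (limma adjusted p = 0.401 and 0.525), and the control change between 36 and 60 h was 0.96 (adjusted p = 0.140). The gains were larger in controls by the means, but the test of a difference between times had a limma adjusted p of 0.720.

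The LIM-homeodomain gene isl1a, an early gene of islet cells and of motor and sensory neurons, read 2.22, 2.32 and 2.41 in morphants and 3.29, 1.42 and 2.24 in controls at 36 h. At 48 h it read 2.83, 3.38 and 3.63 in morphants and 3.40, 3.36 and 3.56 in controls, and groups overlapped at both times. At 60 h it read 2.77, 2.94 and 3.21 in morphants, against 4.05, 3.91 and 3.39 in controls, and each morphant array was below each control array. The 60 h difference was -0.81 (SE 0.35, 95% interval -1.54 to -0.07, limma adjusted p = 0.248).

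In controls isl1a rose by 1.12 between 36 and 48 h (SE 0.35, 2.17-fold, limma adjusted p = 0.0283) and by 1.47 between 36 and 60 h (SE 0.35, 2.76-fold, limma adjusted p = 0.00700). In morphants the corresponding differences were 0.96 (limma adjusted p = 0.0702) and 0.66 (adjusted p = 0.269). The first control rise passed in 1 of the 6 fits that left out an array, was smallest without control array 2 at 36 h (0.67, adjusted p = 0.122) and had an adjusted p between 0.0573 and 0.0839 in the other 4 that missed. The rise between 36 and 60 h passed in all 6, but on the values as deposited it was 0.71 (limma adjusted p = 0.234). When only the arrays of the groups compared were fitted, neither control rise passed (limma adjusted p = 0.148 and 0.130). In that setting the morphant difference between 36 and 48 h passed (adjusted p = 0.0144). Without both control arrays of low median, the morphant difference between 36 and 48 h passed (0.96, adjusted p = 0.0148), and the difference between morphants and controls at 36 h was 0.49, against -0.00052 with them. No difference between kinds of embryo in these changes was shown (limma adjusted p of the test between times = 0.803).

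The homeodomain gene nkx2.2a, which in mice is needed for beta cells, moved least of the 8 genes over the whole course. It read 3.27, 3.44 and 3.37 in morphants and 3.90, 3.16 and 3.25 in controls at 36 h. At 48 h it read 3.26, 3.70 and 3.69 in morphants, against 2.88, 3.18 and 2.97 in controls, and all morphant arrays were higher than all control arrays. At 60 h it read 3.59, 3.20 and 3.09 in morphants and 3.49, 3.60 and 3.65 in controls, which overlapped. The 48 h difference was 0.54 (SE 0.23, 95% interval 0.06 to 1.01, limma adjusted p = 0.390), and the change between 36 and 60 h was -0.07 in morphants and 0.15 in controls (SE 0.23 each, limma adjusted p = 0.903 and 0.712). The difference between morphants and controls at 36 h was -0.075, and 0.16 without both control arrays of low median.

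The paired-box gene pax6b, the paralog of pax6a that zebrafish islet cells use, read 3.15, 4.03 and 3.07 in morphants and 1.97, 2.48 and 3.10 in controls at 36 h. At 48 h it read 2.67, 1.47 and 2.77 in morphants and 2.74, 2.63 and 3.16 in controls, and at 60 h 1.75, 3.08 and 2.50 in morphants and 2.77, 3.04 and 3.49 in controls. The groups overlapped at all 3 times. The difference was 0.90 at 36 h (SE 0.41, unadjusted p = 0.0416, limma adjusted p = 0.361), -0.54 at 48 h and -0.65 at 60 h. Between 36 and 48 h the morphant difference over time was -1.11 (limma adjusted p = 0.0736), and it passed without both control arrays of low median (adjusted p = 0.0475). Between 36 and 60 h pax6b differed by -0.97 in morphants and by 0.58 in controls (limma adjusted p = 0.146 and 0.365), and the test of a difference between times had an unadjusted p of 0.0268 and a limma adjusted p of 0.603.

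**Figure D3:**
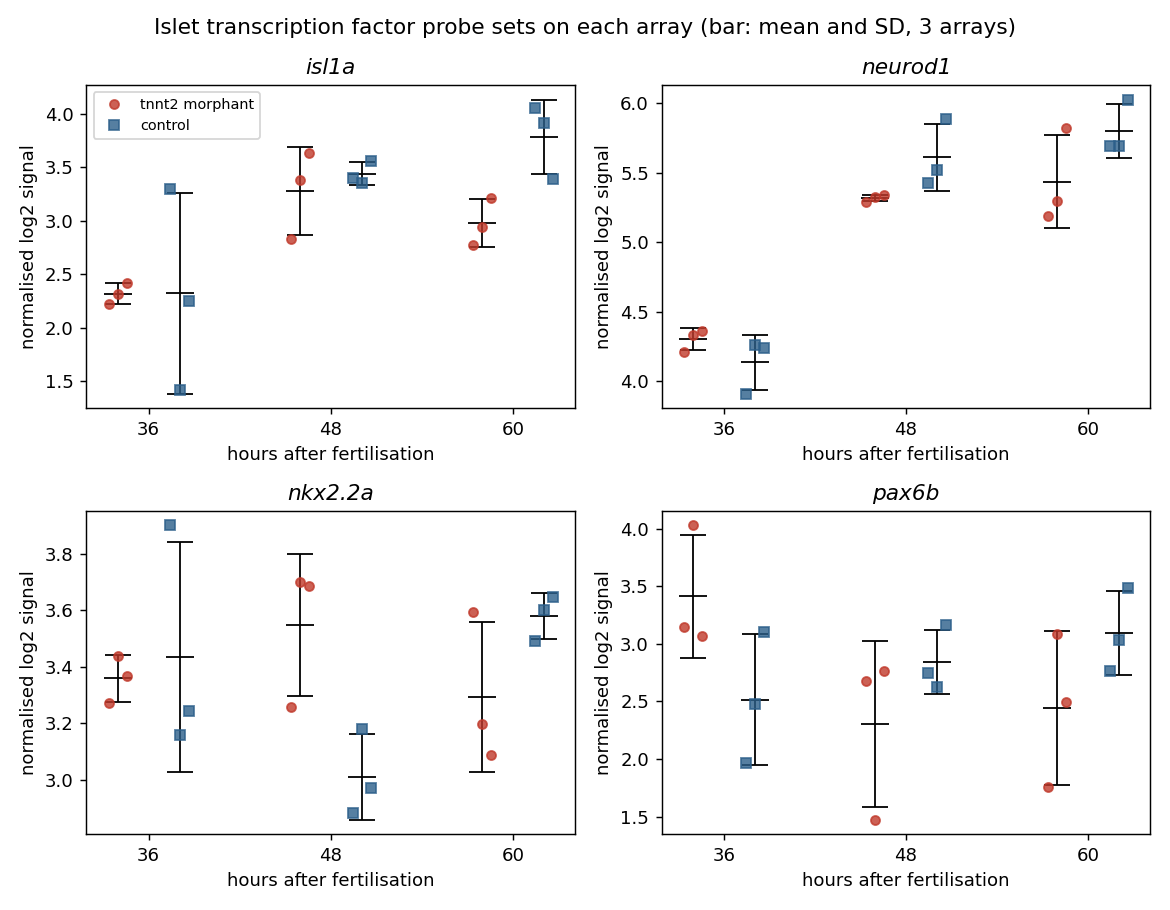
Normalised log2 signal (vertical axes) of the 4 transcription factor genes on each array at 36, 48 and 60 h (horizontal axes), with morphants as red circles left of controls as blue squares, and bars for the mean and SD of 3 arrays. Signals of neurod1 on both kinds of array lie between 3.91 and 4.36 at 36 h and above 5.1 afterwards, and those of isl1a at 60 h are lower on all morphant arrays.

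Counted over the members, morphant and control arrays did not overlap for 1 of 8 genes at 36 h (sst1.1), 4 of 8 at 48 h (ins, sst2, nkx2.2a and neurod1) and 3 of 8 at 60 h (sst2, gcga and isl1a). The background shares of probe sets whose arrays did not overlap in either direction were 13.9%, 24.9% and 20.2%. For sst2 the morphant arrays were the higher ones at both later times, and no other gene was separated at more than 1 time.

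More of the 8 genes passed between times than between morphants and controls, and the background shares between times were mostly higher too. In morphants, 1 of 8 passed between 36 and 48 h (neurod1, background 15.7%) and 0 of 8 between 48 and 60 h (background 0.955%). In that later step 1 of the 8 had an unadjusted p under 0.05 in limma, as had 1876 of all 11626 probe sets tested. Between 36 and 60 h, 3 of 8 passed in morphants (gcga, sst1.1 and neurod1, background 11.8%). In controls, 3 of 8 passed between 36 and 48 h (isl1a and neurod1 higher, sst2 lower, background 22.6%), 2 of 8 between 48 and 60 h (ins and sst1.1, background 26.4%) and 3 of 8 between 36 and 60 h (sst1.1, isl1a and neurod1, background 18%). The median change between 36 and 60 h was 0.95 in morphants and 1.02 in controls, where that of all probe sets tested was -0.02 in both.

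**Figure D4:**
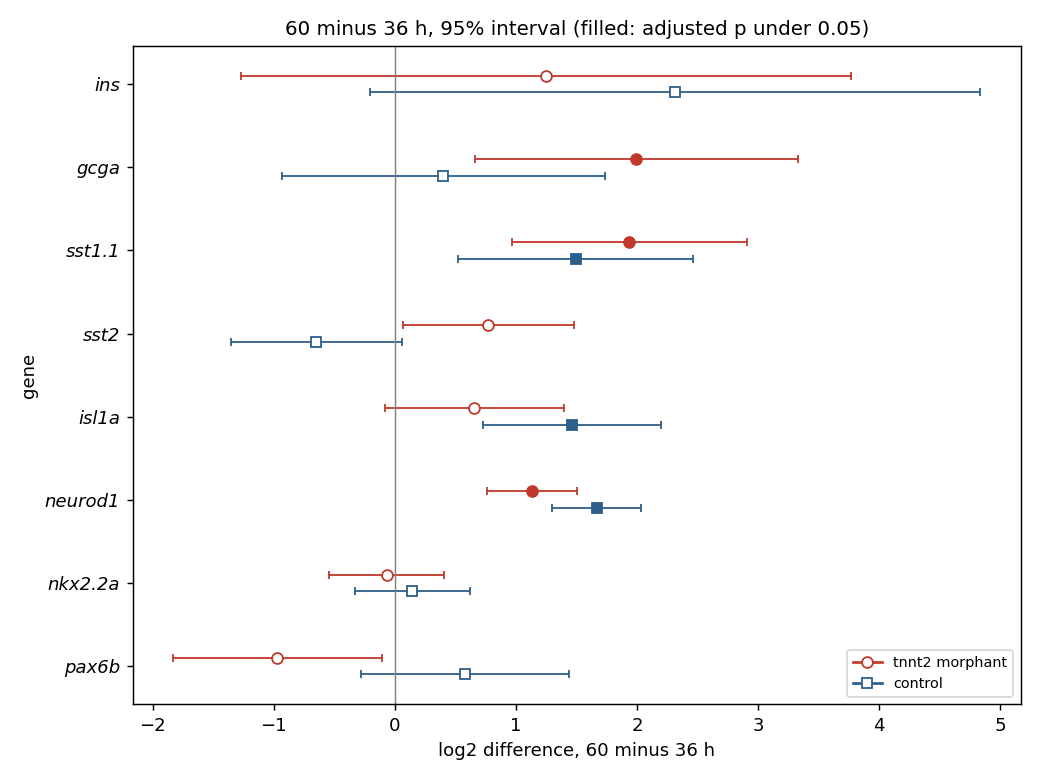
Log2 change between 36 and 60 h (horizontal axis) in each of the 8 genes (vertical axis), with 95% intervals from limma, for morphants (red circles, upper) and controls (blue squares, lower). Filled symbols passed an adjusted p of 0.05, which were gcga, sst1.1 and neurod1 in morphants and sst1.1, isl1a and neurod1 in controls.

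The order of the group means differed from gene to gene. For neurod1 the 2 groups at 36 h were the lowest, and the step up to the next group, morphants at 48 h, was the only one without overlapping arrays. For ins the lowest group was controls at 48 h and the highest controls at 60 h, and only morphants at 36 h and morphants at 48 h were neighbours in the order without overlap. For gcga only the highest group, morphants at 60 h, was apart from the group below it, and for sst1.1 only the lowest, morphants at 36 h, from the group above it. Neighbouring groups overlapped throughout for sst2, isl1a, nkx2.2a and pax6b.

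Precision followed brightness. The deposited standard errors of the mmgMOS values, which describe the agreement of the probes within 1 array, lay between 0.10 and 0.44 for neurod1 and between 0.34 and 2.61 for ins. The lowest ins values had the largest errors, with 2.61 for control array 2 at 36 h and 2.43 for control array 1 at 48 h. Brightness alone did not set the error. For nkx2.2a the deposited signal of control array 1 was 3.90 with an error of 0.56 at 48 h. At 60 h it was 2.86 with an error of 0.25. When arrays were weighted by the inverse square of these errors, no gene passed in any comparison of morphants with controls.

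**Figure D5:**
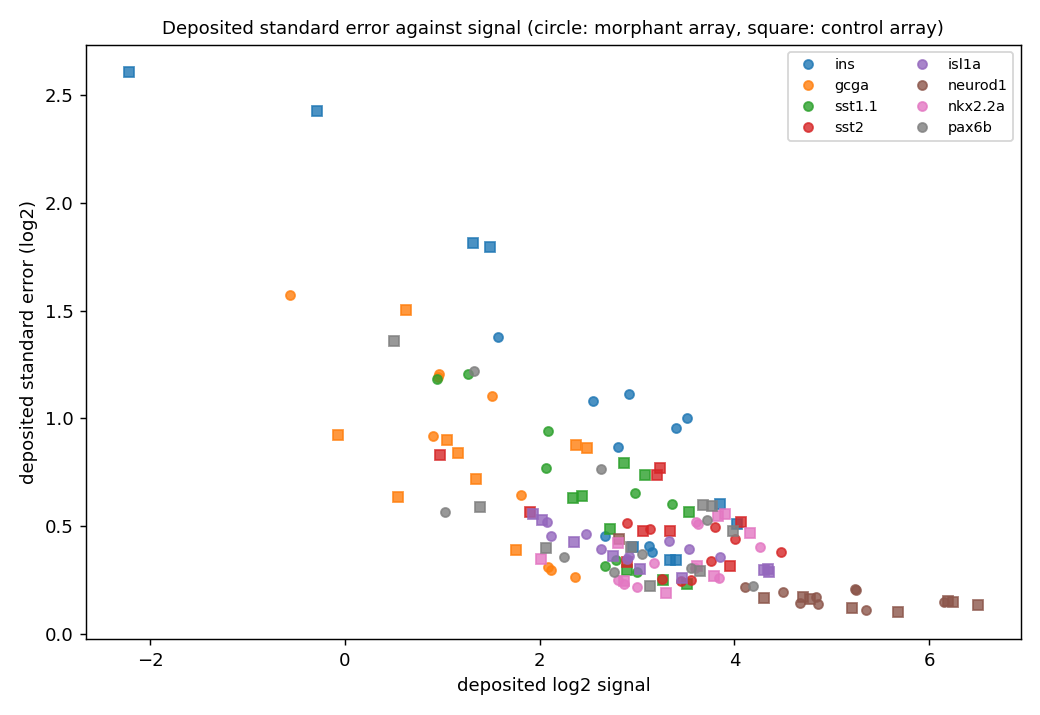
Deposited standard error (vertical axis, log2 scale) against deposited log2 signal before normalisation (horizontal axis) for the 8 genes on all 18 arrays, with morphant arrays as circles and control arrays as squares. Errors exceed 1.5 on 4 control arrays for ins and on 1 array of each kind for gcga, all at signals under 2, and stay under 0.5 for neurod1.

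The authors' own comparison ranked some of these genes differently from the test on normalised values. In the authors' deposited table for 60 h, sst2 had a log2 ratio of 0.94 with a probability of 0.996 that the morphant level is higher, and gcga a log2 ratio of 0.75 with a probability of 0.985. In the authors' deposited table for 48 h, ins had a log2 ratio of 0.65 with a probability of 0.836, neurod1 a log2 ratio of -0.49 with a probability of 0.0237 and isl1a a log2 ratio of -0.41 with a probability of 0.0573. In the authors' deposited table for 36 h, sst1.1 had a log2 ratio of -0.80 with a probability of 0.0583, and the sizes of the other 7 ratios were at most 0.025. For sst2 at 48 h the authors' deposited table gave a log2 ratio of 0.01 and a probability of 0.568. These ratios are not the gaps between the authors' combined group values. For sst2 at 48 h those values were 4.09 in morphants and 3.50 in controls. For pax6b at 36 h they were 3.67 and 2.37, beside a log2 ratio of 0.018.

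Array medians of the deposited values differed between kinds of embryo by 0.30, -0.69 and 0.50 at 36, 48 and 60 h, morphant minus control, and quantile normalisation removes such shifts. On the values as deposited, the sst2 difference was 0.59 at 48 h and 1.50 at 60 h, against 1.34 and 1.03 after normalisation. The sign of the 48 h difference turned for nkx2.2a (-0.13), gcga (-0.68) and sst1.1 (-0.35) on the values as deposited, and 0 of the 8 genes passed in limma on that scale in any comparison of morphants with controls. There the sign also turned for isl1a and nkx2.2a at 36 h and for nkx2.2a at 60 h (0.165).

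Other genes of the islet were sparsely represented. Of 34 further islet transcription factors listed, 16 had a probe set and 14 could be tested. Pdx1 and neurog3 were below the limit on dim probe sets. Of the 14, 2 also stand in the neuron list below, 1 in the retina list and 3 in the gut and liver list. The list is thus not particular to the islet. None of the 14 passed in morphants against controls at 36, 48 or 60 h or on average (background 0.181%, 0.568%, 0.920% and 4.81%). Their differences averaged over the 3 times ran between -0.54 and 0.76 with a median of -0.10. Their mean log2 signal ran between 3.58 and 3.71 on morphant arrays at 60 h, against 3.73 to 3.84 on control arrays, without overlap. The arrays overlapped at 36 and 48 h. Of single probe sets, 20.2% did not overlap at 60 h. Between 36 and 60 h, 2 rose and 1 fell in morphants (background 11.8%), and 3 rose and 1 fell in controls (background 18%). Ascl1b, a proneural factor that is active in early endocrine precursors of zebrafish, fell by 1.25 in morphants (limma adjusted p = 0.000674) and by 1.33 in controls (limma adjusted p = 0.000300). Neurod2 rose by 1.63 in each kind (limma adjusted p = 0.0219 in morphants and 0.0169 in controls). Mafba rose by 1.3 in morphants (adjusted p = 0.0358), and hnf1ba and prox1a rose by 1.76 and 1.19 in controls (adjusted p = 0.0164 and 0.00557).

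Among 16 further islet hormones and peptides, pyya, a peptide YY gene, was the only one tested, and its average difference between morphants and controls was -0.41 (limma adjusted p = 0.106). It rose between 36 and 60 h by 1.07 in morphants (limma adjusted p = 0.00989) and by 0.81 in controls (adjusted p = 0.0344). Of the 11 beta cell glucose-sensing genes, gck, which encodes glucokinase, was the only one tested, and its average difference was -0.35 (adjusted p = 0.566).

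Of 24 genes for prohormone processing and secretory granules, 6 were tested. Snap25b, a membrane-fusion protein of exocytosis in neurons and endocrine cells, was lower in morphants at 60 h (log2 difference -0.74, limma adjusted p = 0.0453) and on average (-0.47, adjusted p = 0.0114). The other 5 did not pass at any time or on average. Of all probe sets tested, 0.920% passed at 60 h and 4.81% on average. Snap25a, snap25b and vamp2, which also stand in the neuron list, rose in both kinds of embryo between 36 and 60 h, snap25b by 2.02 in morphants and 2.21 in controls (limma adjusted p = 3.54e-07 and 1.32e-07).

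Of 32 insulin and glucagon target genes listed, 9 were tested, and 1 differed between morphants and controls at 48 h, at 60 h and on average. The background shares were 0.568%, 0.920% and 4.81%. Igfbp1a, a binding protein of insulin-like growth factors that insulin represses in liver, was higher in morphants by 1.54 at 48 h (SE 0.26, 2.92-fold, limma adjusted p = 0.00842), by 1.66 at 60 h (SE 0.26, 3.15-fold, limma adjusted p = 0.00896) and by 1.29 on average (limma adjusted p = 8.68e-05). The other 8 did not pass at any time or on average. Whether igfbp1a followed the islet hormones was not tested. Among 37 genes of hormone receptors and insulin signalling, 6 were tested, and 0 passed in limma in morphants against controls. Their median difference was 0.33 at 36 h, 0.13 at 48 h and 0.66 at 60 h, with lowest values of -0.060, -0.72 and 0.32. The single largest of their differences averaged over the 3 times was that of pik3r3b, a regulatory subunit of phosphoinositide 3-kinase (0.87, limma adjusted p = 0.0790). The mean log2 signal of the 6 ran between 3.51 and 3.94 on morphant arrays at 60 h, against 2.46 to 3.18 on control arrays, without overlap. It overlapped at 36 and 48 h, and 20.2% of single probe sets did not overlap at 60 h.

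The exocrine pancreas, whose acinar cells surround the islet and make digestive enzymes, had 3 testable genes of 42 listed, prss1, cpa5 and ptf1a. Of these, 0 passed in limma in morphants against controls. The background shares were 0.181%, 0.568% and 0.920% at 36, 48 and 60 h, and 4.81% on average. The mean log2 signal of the 3 ran between 1.73 and 2.30 on morphant arrays at 60 h, against 2.48 to 3.28 on control arrays, without overlap. Of single probe sets, 20.2% did not overlap at 60 h. The arrays overlapped at 36 h (1.75 to 2.63 in morphants, against 1.84 to 2.94 in controls) and at 48 h (2.58 to 2.78, against 2.70 to 2.96). The median difference of the 3 genes was -0.22 at 36 h, -0.039 at 48 h and -1.03 at 60 h, where that of ptf1a was -0.089. Of 22 probe sets described as pancreatic digestive enzymes, 7 were tested, 2 of which are the prss1 and cpa5 probe sets. In morphants against controls 0 of the 7 passed, beside the same background shares. Their median difference was -0.33 at 36 h, -0.18 at 48 h and -0.72 at 60 h. The mean log2 signal of these 7 overlapped at 60 h (1.19 to 1.38 in morphants, against 1.08 to 2.60 in controls) and at 36 h. At 48 h it did not overlap (1.68 to 1.96, against 1.97 to 2.19), where 24.9% of single probe sets did not. The trypsin gene prss1 rose by 1.61 between 36 and 60 h in controls (limma adjusted p = 0.0148, background 18%). In morphants 0 of the 3 exocrine genes passed over that span (background 11.8%).

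Because the 4 transcription factors are also expressed in neurons and retina, 2 marker lists were read beside them. Of 27 genes listed for neurons, 12 were tested, 2 of which are also islet factors. The 12 include gfap, a glial gene, and olig2, a gene of neural progenitors, so the list is not of neurons alone. In morphants 0 of the 12 were higher and 1 was lower (snap25b) at 60 h and on average. The background shares there were 0.920% and 4.81%. The mean log2 signal of these 12 ran between 4.91 and 5.02 on morphant arrays and 4.73 and 5.15 on control arrays at 36 h, between 5.51 and 5.71 and between 5.62 and 5.82 at 48 h, and between 5.32 and 5.75 and between 5.37 and 5.48 at 60 h, in the same order, overlapping at each time. Of the 12, 5 rose between 36 and 60 h in morphants (background 11.8%) and 5 in controls (background 18%), among them elavl4, which encodes a neuronal RNA-binding protein, by 1.46 in morphants and 1.48 in controls (limma adjusted p = 0.0157 and 0.0106).

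Of 28 retina genes, 19 were tested, and in morphants 0 were higher and 2 lower at 36 h, 0 passed at 48 h, 4 were lower at 60 h and 10 were lower on average. The background shares were 0.181%, 0.568%, 0.920% and 4.81%. Their mean log2 signal ran between 1.51 and 1.82 on morphant arrays against 2.30 to 2.97 on control arrays at 36 h. It ran between 2.37 and 2.85 against 3.23 to 3.54 at 48 h, and between 2.68 and 2.87 against 3.92 to 4.38 at 60 h. The groups did not overlap at any time. Of single probe sets, 13.9%, 24.9% and 20.2% did not overlap at 36, 48 and 60 h. Among the retina genes past the threshold, those with the largest differences were the photoreceptor factor crx (-4.69 at 36 h, limma adjusted p = 0.0104), the ultraviolet opsin gene opn1sw1 (-4.37 at 60 h, adjusted p = 0.00896), the photoreceptor nuclear receptor nr2e3 (-3.21 at 36 h, adjusted p = 0.0234) and the recoverin gene rcvrn2 (-2.13 on average, adjusted p = 0.0138). For these 4 the morphant mean was below the limit on dim probe sets, so the sizes are uncertain and no fold is given. In controls 10 of the 19 retina genes rose and 3 fell between 36 and 60 h (background 18%). In morphants 6 rose and 2 fell (background 11.8%). The median change of the 19 was 1.45 in controls and 0.47 in morphants, where that of all probe sets tested was -0.02 in both. The part of retina and neurons in the neurod1, isl1a, nkx2.2a and pax6b values was not tested.

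Named genes with the pattern most like each hormone were sought over the 6 group means among 943 other named genes, as a description. For sst1.1 these were selenot1b, which encodes a selenoprotein (Pearson r = 0.993), mtch2, a mitochondrial carrier homologue (0.981), and pdia6, a disulphide isomerase of the endoplasmic reticulum (0.978). For ins they were dlx6a, a homeobox gene (0.985), mapk3, a kinase gene (0.980), and mcl1a, of the Bcl-2 family (0.970). For gcga they were snai1a, a zinc-finger repressor gene (0.872), and the chaperone genes hspd1 (0.872) and hsp70.3 (0.864), and for sst2 phc2a, a Polycomb gene (0.898), efna3b, an ephrin gene (0.897), and znf703, a zinc-finger gene (0.893). Over the 18 single arrays the 12 correlations ran between 0.375 for phc2a and 0.940 for mtch2. The control groups at 36 and 60 h each include an array of low median signal.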

How the data were processed

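Zebrafish whole-embryo RNA was measured on 18 arrays in 6 groups taken from the sample titles. Per the deposited readme and file names, the authors estimated expression with mmgMOS of the puma package, giving a log2 value per probe set and array and another value, its standard error. No source used here gives the base of the logarithm, and it was taken as log2, which mmgMOS returns. The authors combined the 3 arrays of a group and deposited log2 ratios of morphant over control with the probability, from 0 to 1, that the ratio is positive, per the deposited readme.

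Here 115 manufacturer's control probe sets were left out, and the deposited log2 values, whose array medians spanned 2.68, were quantile normalised with limma 3.58.1 in R 4.3.3. Those whose mean over the arrays lay below the 25th percentile (0.62) were dropped, leaving 11626 to test. One limma model with a mean per group, an intensity trend, 12 residual degrees of freedom and 6.24 prior ones gave all comparisons, tested first on simulated data. Array numbers limit the precision: the median SE of a difference at 36 h was 0.28. Names came from deposited descriptions and lists and a RefSeq table (assembly GRCz12tu, names only), which gave 4104 probe sets 1 name. Alternatives were scaling, filter, trend, groups in the fit, replicate block, weights, and leaving out arrays. Named genes were the 8 members, the 3 named genes most like each hormone, and from each list up to 4 genes past the threshold with the largest morphant difference and up to 4 with the largest control change between 36 and 60 h. The rule was not carried out in full for the control change. Genes with called control changes in the retina, hormone receptor, and insulin and glucagon target lists were not named for them. In the gut and liver list not all were named. Mafba and list genes named without passing (such as gck, pik3r3b, cpa5 and ptf1a) fall outside the rule and were chosen after their values were seen. Members, lists and this rule were chosen with earlier results of these data known.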

Additional observations from a re-analysis of the deposited data

How the results depend on the processing

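The share of all probe sets that passed is not given for the alternative fits, nor for those that leave out 1 array. No count in them is therefore read as particular to the 8 genes. Numbers of the 8 genes called changed as follows. On the values as deposited, whose mean array median in controls was 3.81 at 48 h and 1.92 at 60 h, 6 passed in controls between 48 and 60 h (2 after normalisation), 1 between 36 and 60 h (3; the 1 was sst2, at -1.53 with adjusted p = 0.0387, and none of the 3), and in morphants 0 between 36 and 48 h (1) and 0 between 36 and 60 h (3). On that scale the control change between 48 and 60 h turned for sst2 (-1.58), isl1a (-1.39), neurod1 (-1.25), nkx2.2a (-1.24) and pax6b (-1.62), and the control change between 36 and 48 h turned for sst2 (0.052). With the filter at the median, ins, gcga and sst1.1 were not tested, 1 gene (sst2, adjusted p = 0.0482) passed in the average of morphants against controls, 0 in controls between 48 and 60 h and 1 in morphants between 36 and 60 h. With only the arrays of the groups compared, 2 passed in morphants against controls at 48 h (ins and sst2), 5 in morphants between 36 and 48 h and 5 between 36 and 60 h, and 1 in controls for each of the same steps, where the cause was not tested. Without the 2 control arrays of low median, a setting added after the data were seen, 1 passed at 48 h and 1 in the average (sst2 in both), and 4 in morphants between 36 and 48 h. Median centring, no filter, no trend and weighting kept all 11 counts within 1.5 times, but the genes called changed. Weighting lost sst1.1 (limma adjusted p = 0.0974) and gained pax6b (0.0443) in morphants between 36 and 60 h. In controls between 36 and 48 h it lost sst2 (0.179) and gained ins (0.0475). Centring lost gcga in that morphant step (0.0540) and isl1a in that control step (0.0522). It gained neurod1 in controls between 48 and 60 h (0.0117). No filter lost gcga (0.0570) and sst2 (0.0522) in the same steps, and no trend lost sst2 (0.0547).

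Leaving out 1 array at a time, 0 genes passed in morphants against controls at 36, 48 and 60 h, 0 to 1 in the average and 0 to 1 in the test between times. Counts ran from 1 to 3, 1 to 2 and 2 to 4 in controls for 36 to 48, 48 to 60 and 36 to 60 h, and were 1, 0 and 2 to 3 in morphants. Same-numbered morphant and control arrays deviated together with r above 0.1 in 8 of 9 pairs (-0.06 to 0.27). Every array correlated best with its own number at 36 and 48 h but not at 60 h, so the numbers were not taken as pairs. With the replicate block, 1 gene (sst2, adjusted p = 0.0348) passed in the average of morphants against controls, and the other 10 counts did not change. Dim signal limits ins and gcga most.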

Other observations

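Genes of the neighbouring endoderm and of the pituitary were read as a further comparison. Of 34 gut and liver genes listed, 13 were tested, and 0 passed in limma in morphants against controls at any single time. The background shares were 0.181%, 0.568% and 0.920% at 36, 48 and 60 h. On average 1 was lower (background 4.81%), rbp2a, a retinol-binding protein gene of the intestine (log2 difference -0.91, SE 0.15, limma adjusted p = 0.00188). The mean log2 signal of the 13 ran between 4.22 and 4.40 on morphant arrays at 60 h, against 4.59 to 4.76 on control arrays. These ranges did not overlap, as was so for 20.2% of single probe sets at 60 h. They overlapped at 36 and 48 h, and 3 of the 13 are also islet factors. Between 36 and 60 h rbp2a rose by 0.82 in morphants and 0.79 in controls (limma adjusted p = 0.0432 and 0.0394), and fabp2, which encodes an intestinal fatty acid-binding protein, fell by 0.74 in morphants and 0.67 in controls (limma adjusted p = 0.00119 and 0.00211). Of 19 pituitary and hypothalamic hormone genes, 7 had a probe set and 2 were tested. Neither passed in morphants against controls, beside the same background shares. The pituitary hormone genes pomca, tshba and cga lay below the limit on dim probe sets.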
